A study of Mus musculus with 5 samples.

Results

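Collagen genes were followed across the cell types of the mouse dentate gyrus, the entry region of the hippocampus. They were taken as every feature whose symbol consists of Col, a number, the letter a and a number. This gave 44 genes of the 78334 features listed in each of 5 libraries. By the structure of their products they comprised 11 fibrillar chains, 6 chains of the basement membrane network, 3 chains of other networks, 7 chains of beaded filaments and their relatives, 9 fibril-associated chains with interrupted helices, 2 multiplexins, 4 transmembrane collagens, 1 anchoring fibril chain and Col26a1.

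A collagen is a trimer of chains wound into a triple helix. Fibrillar collagens such as types I and III form the fibres of connective tissue, type IV forms the sheet of basement membranes around vessels and under epithelia, and fibril-associated and transmembrane types decorate fibres or cell surfaces. In the brain, collagen is mostly a product of the meninges, the vessel wall and the choroid plexus, while several transmembrane and fibril-associated collagens are made by neurons.

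The study used 2 sets of libraries. The first held dissociated cells of wild-type mice, taken 14 days after contextual fear conditioning, in which a foot shock is paired with a place. These are called CFC-14d. Its counterpart, Random-14d, received foot shocks at random and was taken at the same 14 days. The tissue was dissociated with collagenase and depleted of red cells by lysis. The second held nuclei of frozen tissue from untrained wild-type mice (WT-naive), wild-type mice 14 days after conditioning (WT-CFC) and conditioned knockout mice at 14 days (KO-CFC). The knockout is named Csf2rb2 in the title and Csf2rb3 in the genotype field, so it is called here the library labelled KO-CFC. There was 1 library for each group of 10 mice. Age, strain background and the way mice were pooled are not given in the sources used here. Without replicates no difference could be tested; the intervals reflect the counting of molecules and nothing else.

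The libraries held 8395 to 32827 barcodes with median depths of 1997 to 3988 UMIs (unique molecular identifiers, each standing for 1 captured RNA molecule). Csf2rb2 was read at 14.4 CPM (counts per 1000000 UMIs of the library or class) in untrained nuclei and 17.6 in WT-CFC. It was at 9.67 CPM in the library labelled KO-CFC. Where the reads lay relative to any deleted stretch was not examined, so they do not check the label of that library. That library stood apart from the other nuclei: Xist, the X-inactivation RNA, was at 641 CPM there against 2.94 in WT-naive and 1.81 in WT-CFC, and most of its granule, mossy and microglial nuclei formed clusters of their own. Ttr, the transthyretin made by choroid plexus, made up 212002 and 205111 CPM of the dissociated libraries and was read at lower levels in every other class there. The dissociated libraries shared 282 cell barcodes (0.924% of the smaller), and any pair of nuclear libraries shared 25 to 32.

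Barcodes were clustered without any collagen gene, and a cluster was called like a cell type from markers that held no collagen. The fibroblast-like cluster raised 18 of 19 fibroblast markers at least 2-fold, the smooth muscle-like cluster 12 of 12, the pericyte-like clusters 11 or 12 of 12, the endothelial-like clusters 17 of 18 and the choroid plexus-like clusters 13 or 14 of 14. The CA3-like clusters rested on 5 and 7 of 13 markers. Clusters without a clear name held 16.1% (CFC-14d) and 7.12% (Random-14d) of the collagen UMIs of kept cells. In nuclei they held 9.27% for untrained and 7.14% for conditioned wild-type mice, and 36.6% in KO-CFC. Counted by barcodes, the unnamed share was 42.4% of kept cells for CFC-14d against 19.8% for Random-14d. Of kept nuclei it was 25.5% for untrained mice, 42.0% for conditioned wild-type mice and 35.4% for KO-CFC. Comparisons by class leave these barcodes out and so cover unequal parts of the libraries compared. What they would change in the ratios was not tested.

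All 44 genes had at least 1 UMI in every library, except Col6a4 with 0 in CFC-14d. At least 100 UMIs were reached by 33 genes over the dissociated cells and by 35 over the nuclei. The rare members included Col10a1 with 4 UMIs, Col24a1 with 6 and Col19a1 with 9 over both dissociated libraries. Col19a1 reached 15000 UMIs in the nuclei. Collagen UMIs made up 0.0451% to 0.0596% of all UMIs in the 5 libraries. A single gene led each set: Col9a3 made 46.0% of collagen UMIs of CFC-14d and 42.7% of those of Random-14d, and Col25a1 made 26.6%, 30.04% and 24.9% in WT-naive, WT-CFC and KO-CFC.

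Collagens were spread narrowly over classes. Of the 30 genes with at least 100 UMIs in named classes of dissociated cells, 17 had their highest mean level in fibroblast-like cells, 4 in choroid plexus-like cells, 4 in pericyte-like cells and 1 each in endothelial-, microglia-, astrocyte-, neuroblast- and NK-like cells. The highest class was the same in both libraries for 28 of the 30. The NK-like entry, Col20a1, rested on 1 UMI in each library. The tau index, which is 0 for an even spread and 1 for a gene of a single class, had a median of 0.932 and was at least 0.9 for 19 genes. In nuclei, 30 genes were likewise described and 14 had a tau of at least 0.9. Their highest class was pericyte-like for 9, mossy-like for 6, Adarb2 interneuron-like for 4, committed oligodendrocyte precursor-like for 4, and another class for 7; the 3 libraries had the same highest class for 18. The pericyte-like nuclei numbered only 30, 55 and 24, so those 9 assignments rested on few UMIs. Tau was not computed for other genes, so whether collagens are spread more narrowly than genes in general was not tested.

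**Figure D1:**
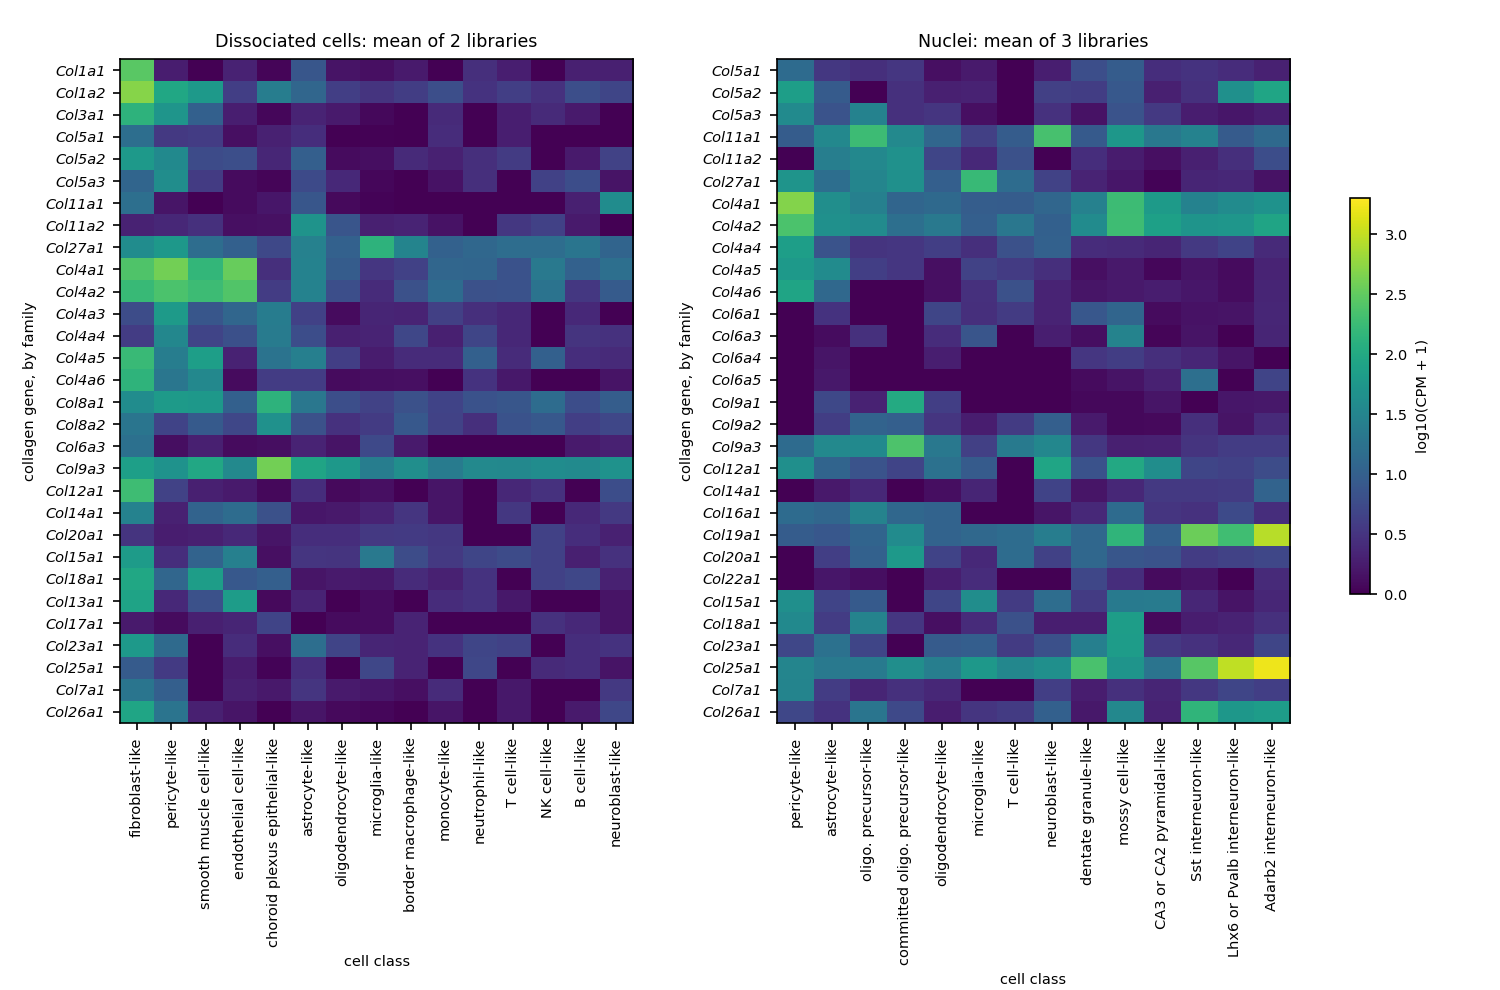
Mean level of each collagen gene with at least 100 UMIs (rows, ordered by family) in each cell class (columns), as log10(CPM + 1), for the 2 dissociated-cell libraries (left) and the 3 nuclear libraries (right). In dissociated cells the fibroblast-like column holds the highest value of 17 genes, while Col9a3 is seen in every column and peaks in choroid plexus-like cells; in nuclei the highest values are those of Col25a1 and Col19a1 in Adarb2 interneuron-like nuclei.

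Fibroblast-like cells carried the largest collagen load of the dissociated classes. All collagens together stood at 2839 CPM (95% Poisson interval 2689 to 2994) in CFC-14d and 2600 (2481 to 2723) in Random-14d, over 200 and 246 cells. Pericyte-like cells followed at 1312 and 1169 CPM, ahead of smooth muscle-like cells at 896 and 729, endothelial-like cells at 854 and 747, and choroid plexus-like cells at 753 and 644. The intervals of smooth muscle-like and endothelial-like cells overlapped in both libraries, and in Random-14d that of smooth muscle-like cells also held the choroid plexus value, so the counts did not separate the order of these neighbours. Choroid plexus-like cells, 2818 and 3270 in number, held 62.7% and 64.9% of the collagen UMIs of kept cells.

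The type I chains, whose trimer of 2 α1 chains and 1 α2 chain is the main fibre of connective tissue, marked fibroblast-like cells. Col1a1 was at 298 CPM in CFC-14d, from 142 molecules, and 277 in Random-14d, from 192. The next highest class was astrocyte-like, at 6.74 and 6.72 CPM from 6 UMIs in each library. Col1a2 was at 464 and 536 CPM in fibroblast-like cells, and was also read at 96.9 and 85.2 CPM in pericyte-like cells, 69.5 and 50.1 in smooth muscle-like cells and 23.3 and 25.2 in choroid plexus-like cells. The 2 chains of this trimer were therefore not distributed alike.

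The share of Col1a1 in the UMIs of both type I genes measured that difference. It was 39.1% (95% Clopper-Pearson interval 34.1 to 44.3) in fibroblast-like cells of CFC-14d and 34.1% (30.2 to 38.2) of Random-14d. In pericyte-like cells it was 1.26% and 0.552%, from 2 and 1 Col1a1 UMIs. In choroid plexus-like cells it was 0.449% (0.146 to 1.05) and 0.4996% (0.184 to 1.08), from 5 of 1113 and 6 of 1201 UMIs. Thus Col1a2 RNA was read in choroid plexus-like and pericyte-like cells with almost no Col1a1, in both libraries and with intervals far from those of fibroblast-like cells. Shares of UMIs between genes depend on each gene's capture and are compared here only between classes.

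Other fibrillar and fibril-associated genes of connective tissue were also highest in fibroblast-like cells. Col3a1, the type III chain of elastic tissues, was at 132 and 136 CPM, and Col12a1, which binds to fibril surfaces, at 199 and 173 CPM. Col5a1, Col5a2 and Col14a1, which regulate or coat fibrils, were at 18.9 and 10.1, 60.8 and 54.9, and 23.1 and 33.2 CPM. Thinned to 1000 UMIs per cell, which left out 64 and 47 shallower cells, 30.1% of 136 fibroblast-like cells of CFC-14d and 26.6% of 199 of Random-14d had a Col1a1 UMI (38.5% and 46.7% unthinned). None of 234 and 367 B-cell-like cells had one, which allows a share of up to 1.28% and 0.817% (3 counts). Median depths before thinning were 2129.5 and 2457 UMIs in these fibroblast-like cells and 1849.5 and 1422 in these B-cell-like cells.

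The multiplexins were also read in this class. Col18a1, the source of endostatin in vessel and epithelial basement membranes, was at 111 and 69.4 CPM and Col15a1 at 75.5 and 52.0. Of the transmembrane members, Col13a1 was at 94.4 and 67.9 CPM and Col23a1 at 69.2 and 49.1. Col26a1, which belongs to neither group, was at 81.8 and 88.2 CPM. Col6a3 of the beaded filament was at 12.6 and 18.8 CPM from 6 and 13 UMIs, and Col7a1 of anchoring fibrils at 21.0 and 15.9. These low values rested on 6 to 13 UMIs per library.

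Type IV chains are encoded as 3 head-to-head gene pairs, and the products combine as α1α1α2, α3α4α5 and α5α5α6 trimers. In the RefSeq promoter table (build GRCm38.p6, an older build than that of the files), the start sites of Col4a1 and Col4a2 lay 21 bases apart on opposite strands, and those of Col4a5 and Col4a6 1343 bases apart. The bases from start to start of the first pair (chr8:11312805-11312826, plus strand) and the 150 bases before each start of the second pair (Col4a5: chrX:141475269-141475418, plus strand; Col4a6: chrX:141474077-141474226, minus strand) are shown because the members of the 2 pairs were distributed differently. Capitals mark the GC box GGGCGG or its complement.
Col4a1 to Col4a2: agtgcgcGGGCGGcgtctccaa
Col4a5: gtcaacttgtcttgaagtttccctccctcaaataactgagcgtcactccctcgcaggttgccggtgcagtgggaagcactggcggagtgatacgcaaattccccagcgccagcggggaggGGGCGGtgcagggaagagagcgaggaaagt
Col4a6: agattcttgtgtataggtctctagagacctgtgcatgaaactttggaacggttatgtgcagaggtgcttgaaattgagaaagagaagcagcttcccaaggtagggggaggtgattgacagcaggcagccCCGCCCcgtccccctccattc
A GC box was found within 250 bases before the start of 21 of the 35 members with an entry (60.0%), against 8901 of 27025 promoters in all (32.9%), reading both strands. CCAAT was found in 12 of 35 (34.3%; all promoters 34.5%) and TATAAA in 5 of 35 (14.3%; all promoters 12.97%). These are matches of letters and say nothing of binding.

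Col4a1 and Col4a2, the chains of most basement membranes, were read in each vessel class. Col4a1 was at 441 and 360 CPM in pericyte-like cells, 356 and 316 in endothelial-like cells, 256 and 236 in fibroblast-like cells and 167 and 134 in smooth muscle-like cells (CFC-14d and Random-14d). Col4a2 was at 245 and 217, 266 and 241, 176 and 152, and 190 and 178 CPM in the same order of classes. In choroid plexus-like cells Col4a1 was at only 1.58 and 1.94 CPM and Col4a2 at 2.73 and 2.91. The share of Col4a1 was 64.3% and 62.4% in pericyte-like cells, 57.2% and 56.7% in endothelial-like cells and 36.6% and 40.0% in choroid plexus-like cells, and the pericyte and endothelial intervals did not overlap in either library.

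Endothelial-like cells were not uniform in collagen. A cluster led by Plvap, the diaphragm protein of fenestrated vessels, with 219 and 248 cells had Col4a1 at 689 and 651 CPM, against 267 and 255 in the largest endothelial-like cluster. Col13a1, a transmembrane collagen of cell adhesion sites, was at 306 and 275 CPM in the Plvap-led cluster and Col15a1 at 111 and 112. Over all endothelial-like cells Col13a1 was at only 74.6 and 55.5 CPM, and 262 of its 264 UMIs in CFC-14d and 233 of 234 in Random-14d came from that cluster. Collagen genes took no part in the clustering.

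A cluster of pericyte-like cells likewise differed in Col3a1. Led by Ifitm1, Rasl11a and Ccl19, with 164 and 210 cells, it had Col3a1 at 226 and 213 CPM, against 22.1 and 27.5 in the main pericyte-like cluster. The intervals of the 2 clusters were 170 to 294 and 14.8 to 31.8 CPM in CFC-14d. Its 12 of 12 pericyte markers were raised at least 2-fold. Of the other pericyte-like collagens, Col5a3 was at 39.5 and 42.1 CPM, Col8a1 at 56.2 and 68.6 and Col27a1 at 57.4 and 54.9.

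Col4a3 and Col4a4, the chains best known from kidney filter and testis, were read mainly in pericyte-like and choroid plexus-like cells. Col4a3 was at 69.2 and 53.0 CPM in pericyte-like cells and 26.3 and 20.5 in choroid plexus-like cells. Col4a4 was at 30.9 and 34.5, and 25.3 and 20.2 CPM. The Col4a3 share was 51.0% and 50.4% in choroid plexus-like cells against 69.1% and 60.5% in pericyte-like cells, with intervals that did not overlap in either library.

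Col4a5 and Col4a6 were highest in fibroblast-like cells, at 189 and 153 CPM for Col4a5 and 164 and 119 CPM for Col4a6. Choroid plexus-like cells had Col4a5 at 17.2 and 16.6 CPM, and their Col4a5 share was 83.9% and 87.3%, against 53.6% and 56.4% in fibroblast-like cells. Choroid plexus-like cells therefore carried Col4a3, Col4a4 and Col4a5 RNA, the 3 chains of the α3α4α5 trimer, with comparatively little Col4a6. Smooth muscle-like cells had both, with Col4a5 at 67.6 and 72.4 CPM and Col4a6 at 33.8 and 33.4.

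**Figure D2:**
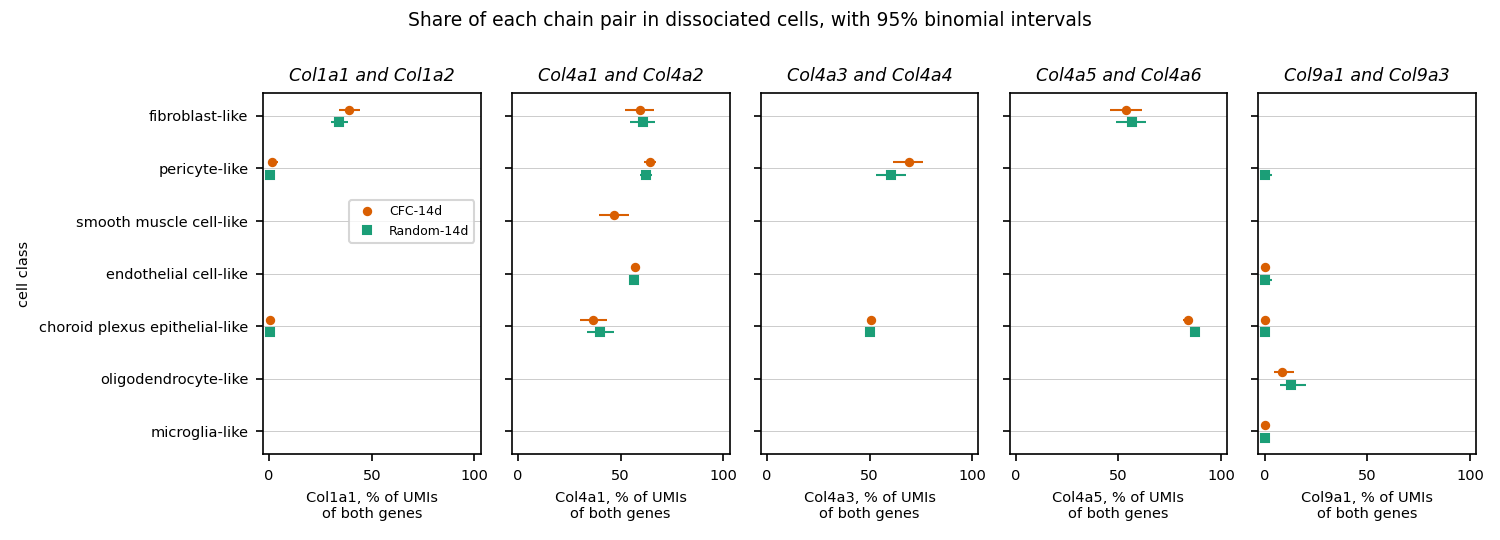
Share of the first gene in the UMIs of each chain pair (x axis, percent) by cell class (y axis) in CFC-14d (circles) and Random-14d (squares), with 95% Clopper-Pearson intervals, where a pair had at least 100 UMIs. The Col1a1 share is 39.1% and 34.1% in fibroblast-like cells and under 2% in pericyte-like and choroid plexus-like cells, and the Col4a5 share is highest in choroid plexus-like cells.

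Choroid plexus-like cells, the epithelium that secretes cerebrospinal fluid, had a collagen profile of their own. Col9a3, a chain of the type IX collagen of cartilage fibrils, was at 423 and 362 CPM (20140 and 17186 UMIs). Col8a1 was at 151 and 122 CPM and Col8a2 at 48.4 and 42.2; they encode the short chains of the type VIII network of Descemet's membrane and vessels. Col17a1, the hemidesmosomal transmembrane collagen, was at 4.33 and 3.29 CPM, the highest of the dissociated classes. The 150 bases before the starts of the type VIII genes (GRCm38.p6; Col8a1: chr16:57754738-57754887, minus strand; Col8a2: chr4:126286644-126286793, plus strand) are shown because both genes peaked in this class, and each holds more than 1 GC box, again in capitals.
Col8a1: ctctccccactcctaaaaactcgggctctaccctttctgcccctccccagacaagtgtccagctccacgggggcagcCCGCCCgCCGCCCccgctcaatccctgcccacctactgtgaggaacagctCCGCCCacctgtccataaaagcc
Col8a2: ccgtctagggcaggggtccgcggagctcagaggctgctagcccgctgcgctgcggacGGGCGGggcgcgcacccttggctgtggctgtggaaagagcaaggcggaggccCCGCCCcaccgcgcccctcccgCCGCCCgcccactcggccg

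The partners that Col9a3 joins in cartilage were almost absent beside it. Choroid plexus-like cells had a single Col9a1 UMI in either library, 1 and 1, a share of 0.00497% (0.000126 to 0.0277) and 0.00582% (0.000147 to 0.0324) of the 2 genes' UMIs. In oligodendrocyte-like cells the same share was 8.33% (12 of 144 UMIs) and 13.01% (16 of 123). Col9a2, the third chain, had 3 and 0 UMIs in choroid plexus-like cells.

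Within the choroid plexus-like class the levels varied with the cluster. The cluster holding most UMIs had Col9a3 at 422 and 363 CPM and Col8a1 at 152 and 122. A shallower cluster of 1552 and 1700 cells had Col9a3 at 327 and 273 and Col8a1 at 75.4 and 62.6 CPM. The third, led by Esrrg and Agbl4, with 164 and 184 cells, had Col9a3 at 710 and 645 CPM and Col8a1 at 355 and 299. The order of these 3 clusters was the same in both libraries, and their intervals did not overlap.

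Col9a3 was read in every dissociated class, as Ttr was, and the ratio of the 2 genes was compared between classes. Choroid plexus-like cells had 1.13 (CFC-14d) and 0.903 (Random-14d) Col9a3 UMIs per 1000 of Ttr. Microglia-like cells had 1.16 and 1.09, pericyte-like cells 1.19 and 1.14, fibroblast-like cells 0.938 and 1.07 and T-cell-like cells 1.48 and 0.918. The intervals of these 4 classes held or overlapped the choroid plexus interval in CFC-14d; in Random-14d those of microglia-like (0.999 to 1.20) and pericyte-like cells (0.929 to 1.38) lay above it (0.890 to 0.917). Astrocyte-like cells had 2.79 (2.23 to 3.44) and 1.85 (1.42 to 2.38), and oligodendrocyte-like cells 2.22 (1.86 to 2.64) and 2.04 (1.67 to 2.47), above the choroid plexus interval in both libraries. Neuroblast-like cells, at 1.56 (1.143 to 2.08, beside an upper choroid plexus bound of 1.142) and 1.2502 (0.925 to 1.65), were just above it in both, and endothelial-like cells, at 1.37 (1.17 to 1.60) and 0.810 (0.664 to 0.978), in CFC-14d alone of the 2. How much of Col9a3 outside the choroid plexus-like class was free RNA was not tested. Thinned to 1000 UMIs, 29.5% and 26.8% of choroid plexus-like cells had a Col9a3 UMI, against 5.56% and 3.54% of B-cell-like cells; median depths were 8490.5 and 8097 UMIs against 1849.5 and 1422. Unthinned, the shares were 76.0% and 73.9% against 7.34% and 4.99%.

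**Figure D3:**
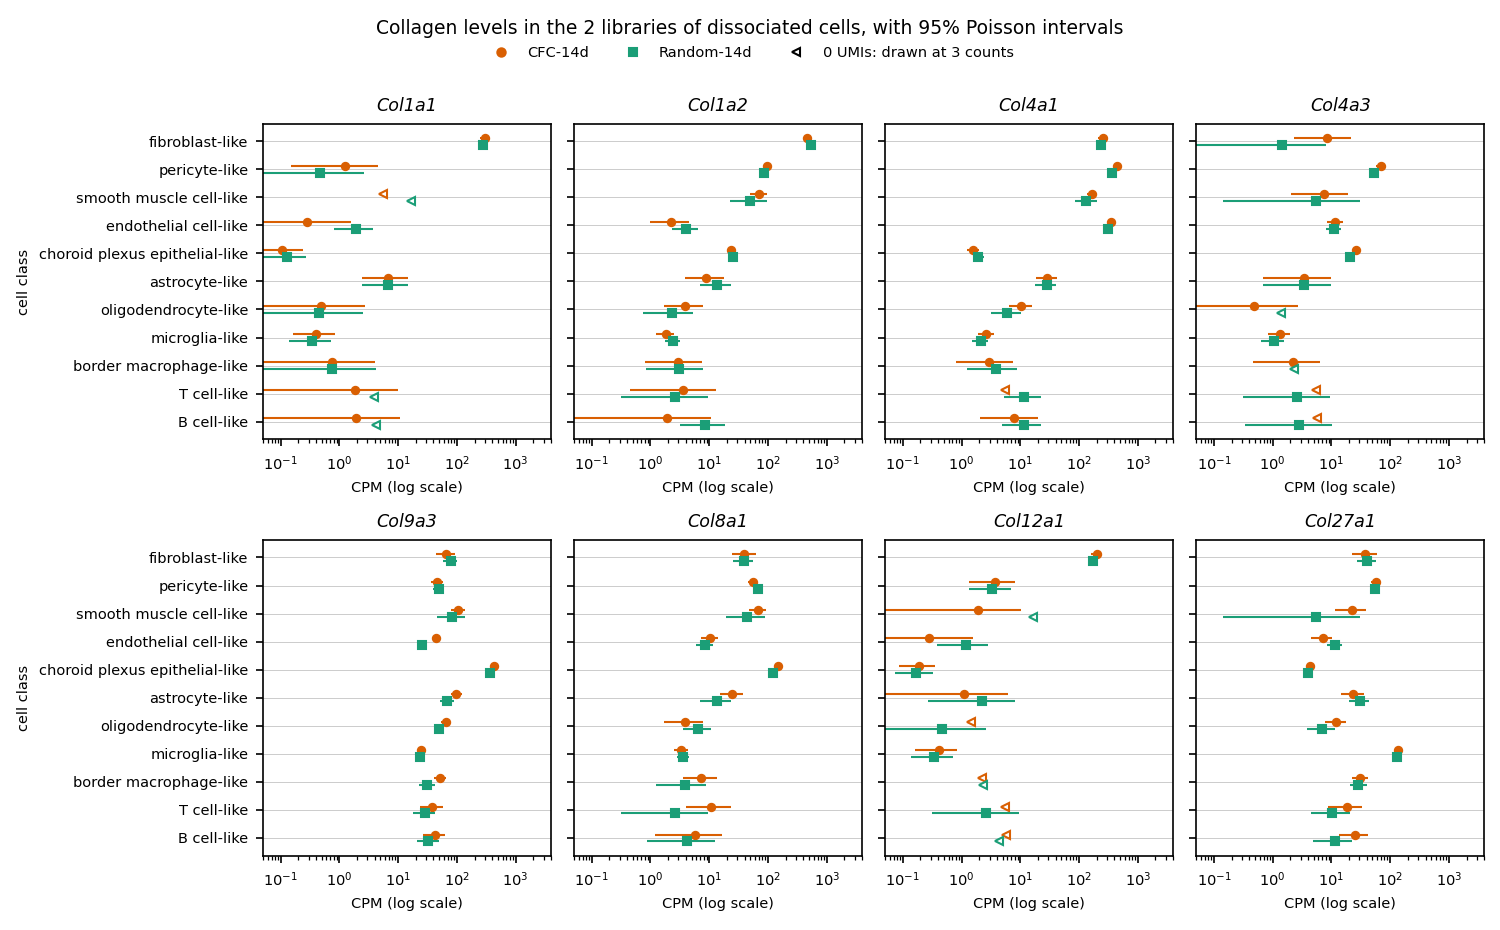
Level of 8 collagen genes (x axis, CPM on a log scale) in 11 cell classes (y axis) of CFC-14d (circles) and Random-14d (squares), with exact 95% Poisson intervals; open triangles stand at 3 counts where no UMI was read. Col1a1 is 298 and 277 CPM in fibroblast-like cells and at most 6.74 elsewhere, Col9a3 is 423 and 362 CPM in choroid plexus-like cells with a lower level in every other class, and Col27a1 is highest in microglia-like cells.

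Among immune and glial classes, Col27a1, a fibrillar collagen of cartilage, was highest in microglia-like cells. It was at 137 CPM in CFC-14d, from 2348 molecules, and 130 in Random-14d, from 2635, with Col15a1 at 22.5 and 18.4 CPM. Nuclei gave the same class as the highest for Col27a1, at 201, 224 and 75.4 CPM in WT-naive, WT-CFC and KO-CFC. Thinned to 1000 UMIs, 13.01% and 12.2% of microglia-like cells had a Col27a1 UMI, against 2.14% and 0.817% of B-cell-like cells; median depths were 2371 and 2008 against 1849.5 and 1422 UMIs. Unthinned, the microglial shares were 27.4% and 23.2% and the B-cell-like shares 4.63% and 2.00%.

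Several fibrillar and fibril-associated chains were read in glial and immature neuronal classes. Astrocyte-like cells were the highest class of Col11a2, a minor fibrillar chain, at 49.4 and 47.0 CPM in CFC-14d and Random-14d. In nuclei, oligodendrocyte precursor-like nuclei had Col11a1, the partner chain, at 208, 149 and 191 CPM in WT-naive, WT-CFC and KO-CFC. Committed precursor-like nuclei had Col9a3 at 199, 250 and 272 CPM, Col9a1 at 45.5, 143 and 123, and Col20a1 at 45.5, 35.7 and 95.3. It held only 54, 38 and 32 nuclei. In the same class Col19a1 was at 114 CPM in WT-naive with 0 UMIs in the other 2 libraries, and Col25a1 was at 96.8, 14.3 and 13.6 CPM. Neuroblast-like nuclei had Col11a1 at 256, 159 and 236 CPM and Col12a1 at 89.1, 85.9 and 82.05. In dissociated cells, too, neuroblast-like cells were the highest class of Col11a1, at 37.0 and 41.6 CPM.

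Adarb2 interneuron-like nuclei had the highest summed collagen level of the nuclear classes in each library. The sum was 2972, 3235 and 2439 CPM in Adarb2 interneuron-like nuclei of WT-naive, WT-CFC and KO-CFC, 1524, 1531 and 1169 in Lhx6 or Pvalb interneuron-like nuclei and 1046, 989 and 811 in Sst interneuron-like nuclei. Pericyte-like nuclei were at 1300, 1501 and 1947 CPM, from only 48, 123 and 49 collagen UMIs, above Sst-like nuclei in WT-CFC and KO-CFC with intervals that did not overlap. In KO-CFC their interval (1441 to 2574) held that of Adarb2-like nuclei (2344 to 2537), so the counts did not separate these classes. The same pericyte-like interval lay above that of Lhx6 or Pvalb-like nuclei (1087 to 1255). Mossy-like nuclei had 938, 925 and 1151 CPM, so that in KO-CFC they stood above Sst-like nuclei and within the interval of Lhx6 or Pvalb-like nuclei. Granule-like nuclei had 405, 368 and 411, and CA3-like nuclei 292, 283 and 266, the last from only 155 collagen UMIs. Nuclear and whole-cell levels are not compared, since the preparations differ.

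Col25a1, a transmembrane collagen whose shed fragment is found in amyloid plaques, was the largest single part of that sum in Adarb2-, Lhx6 or Pvalb- and granule-like nuclei. It was at 1727, 1836 and 1374 CPM in Adarb2-like nuclei, 1100, 1113 and 706 in Lhx6 or Pvalb-like nuclei, 306, 296 and 239 in Sst-like nuclei and 247, 213 and 210 in granule-like nuclei. In mossy-like nuclei it was at 36.1, 64.9 and 50.0 CPM, below granule-like nuclei in each library. Thinned to 1000 UMIs, 50.6% of Adarb2-like nuclei of WT-naive had a Col25a1 UMI, 46.0% of WT-CFC and 41.9% of KO-CFC (69.0%, 65.6% and 61.0% unthinned). In microglia-like nuclei the thinned shares were 3.73%, 5.78% and 3.47%. Median depths were 6650, 7849 and 4952.5 UMIs against 1298, 1435 and 1319.

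Col19a1, a fibril-associated collagen known from hippocampal synapse formation, followed a similar set of classes. It was at 936, 1022 and 685 CPM in Adarb2-like nuclei, 439, 395 and 264 in Sst-like nuclei, 189, 213 and 184 in Lhx6 or Pvalb-like nuclei and 155, 148 and 122 in mossy-like nuclei. Sst-like nuclei were the highest class of Col26a1, at 170, 144 and 112 CPM, and of Col6a5, at 16.6, 15.1 and 13.7 CPM. Col5a2 was highest in Adarb2-like nuclei in the mean over libraries, at 67.5, 89.2 and 102 CPM; in KO-CFC pericyte-like nuclei stood higher, at 119 CPM from 3 UMIs.

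Type IV and fibril-associated genes were also read in excitatory classes. Mossy-like nuclei, the excitatory neurons of the hilus, had Col4a1 at 182, 186 and 171 CPM and Col4a2 at 189, 176 and 191. Col12a1 was at 98.7, 89.9 and 104 CPM there and Col6a3 at 29.4, 26.7 and 30.5. CA3-like nuclei had Col4a2 at 78.0, 82.2 and 65.3 CPM, Col4a1 at 60.2, 65.1 and 61.8 and Col12a1 at 45.6, 40.2 and 34.4. In KO-CFC this class held only 69 nuclei, against 2446 in WT-naive and 1912 in WT-CFC. That was too few for the comparisons of KO-CFC below. Col23a1, a transmembrane collagen, was at 27.8, 26.8 and 23.1 CPM in granule-like nuclei. The Col4a1 share was 49.0%, 51.4% and 47.2% in mossy-like nuclei and 34.9%, 34.7% and 37.4% in Sst-like nuclei.

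**Figure D4:**
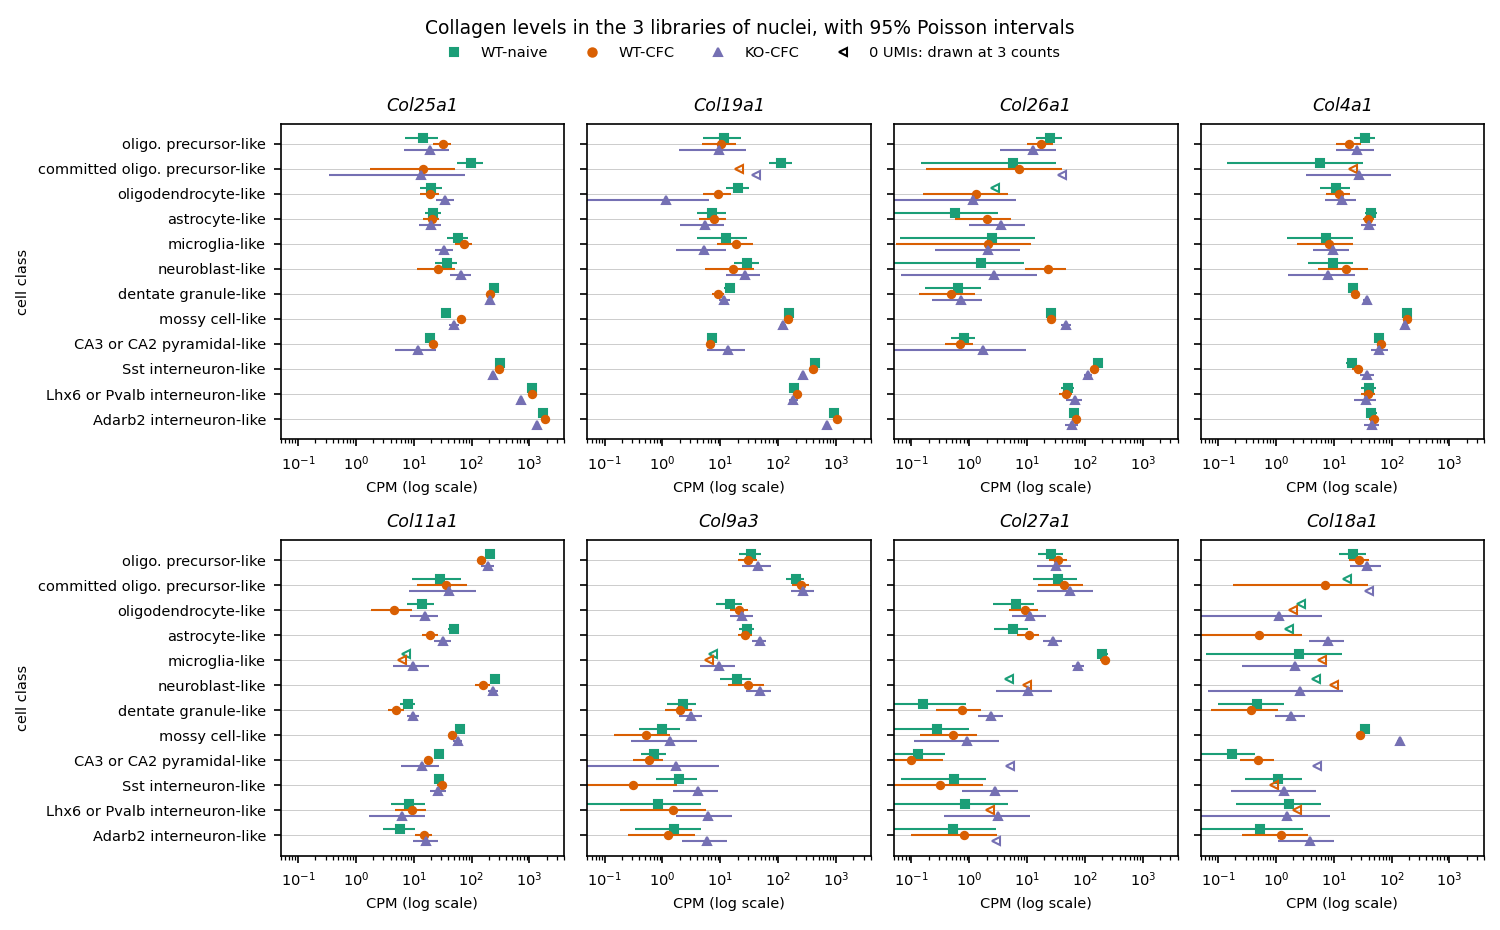
Level of 8 collagen genes (x axis, CPM on a log scale) in 12 classes of nuclei (y axis) of WT-naive (squares), WT-CFC (circles) and KO-CFC (triangles), with exact 95% Poisson intervals; open triangles stand at 3 counts where no UMI was read. Col25a1 and Col19a1 are highest in Adarb2 interneuron-like nuclei in all 3 libraries, and Col18a1 in mossy-like nuclei is at 138 CPM in KO-CFC against 35.0 and 28.3 in WT-naive and WT-CFC.

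CFC-14d and Random-14d, which asks whether pairing the shock with a place matters at day 14, stayed within 1.5-fold for most collagens. Genes with at least 100 UMIs over both libraries were compared in classes with at least 100 cells in each, and a difference of at least 1.5-fold was counted. Of 53 such gene and class pairs among collagens, 4 were at least 1.5-fold higher in CFC-14d and none lower (7.55%), against 3.08% of all 66225 gene and class pairs (1.8% higher, 1.28% lower). No p-value can be given, since each condition had 1 library.

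The collagens past that fold were low in counts. Col9a3 was at 52.2 against 31.2 CPM in border-associated macrophage-like cells (log2 ratio 0.74, interval 0.17 to 1.33) and 44.9 against 25.4 in endothelial-like cells (0.82, 0.46 to 1.19). Those classes had 1.14 against 0.721 and 1.37 against 0.810 Col9a3 UMIs per 1000 Ttr UMIs, and choroid plexus-like cells 1.13 against 0.903; the part of free choroid plexus RNA in the result was not tested. Col14a1 was at 17.2 against 10.4 CPM in endothelial-like cells (0.72, 0.14 to 1.32). Col18a1 was at 111 against 69.4 CPM in fibroblast-like cells (0.68, 0.09 to 1.28), from 53 and 48 UMIs. The Col9a3 ratio in macrophage-like cells was under 1.5-fold at a mitochondrial limit of 10% (0.44) and after separate clustering of the libraries (0.51). That of Col18a1 was under it with at least 1000 UMIs per cell (0.46), with no barcode removed by doublet score (0.54) and as a mean over cells (0.56).

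The highest collagens stayed within 1.5-fold. In fibroblast-like cells the median log2 ratio was 0.16 over 10 collagens and -0.01 over all genes, and in pericyte-like cells 0.05 over 11 and 0.03. It was 0.31 over 6 collagens and 0.07 over all genes in endothelial-like cells. Choroid plexus-like cells gave 0.20 over 15 and 0.10, and microglia-like cells 0.07 over 7 and 0.03. The collagen median was thus above that of all genes in each of these classes. Col1a2 in fibroblast-like cells gave a log2 ratio of -0.21, Col4a1 in pericyte-like cells 0.29, Col4a1 in endothelial-like cells 0.17 and Col9a3 in choroid plexus-like cells 0.22. Of the collagen partners, read against the 3.08% of all pairs, of 52 pairs of basement membrane partners 2 were higher and none lower (3.85%), of 130 pairs of folding, modification and processing genes 3 were higher and 1 lower (3.08%), and of 105 pairs of TGF-beta and profibrotic signals 6 were higher and 6 lower (11.4%). Ccn2, a matricellular factor, was at 42.1 against 20.4 CPM in endothelial-like cells, but at 168 against 263 in fibroblast-like cells. Ccn1 was at 32.7 against 60.1 CPM in pericyte-like cells, and Mmp14, a membrane-bound collagenase, at 94.4 against 147 in fibroblast-like cells.

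WT-CFC and WT-naive, which asks what conditioning left at day 14 against no training, differed in 6 of 56 collagen pairs (10.7%), 2 higher and 4 lower, against 6.34% of all 76208 pairs (3.76% higher, 2.58% lower). Col11a1 was lower in WT-CFC in 3 of the classes counted. It was at 18.0 against 27.5 CPM in CA3-like nuclei (log2 ratio -0.61, -0.80 to -0.43), 19.4 against 48.8 in astrocyte-like nuclei (-1.32, -1.92 to -0.76) and 159 against 256 in neuroblast-like nuclei (-0.68, -1.19 to -0.22). It was also lower, within 1.5-fold, in mossy-like nuclei (-0.50) and precursor-like nuclei (-0.48), and not lower in Sst-like nuclei (0.20). Over the whole library Col11a1 was at 23.6 CPM in WT-CFC, 35.3 in WT-naive and 30.8 in KO-CFC. That level also depends on the mix of classes, and its part was not tested. Neuroblast-like nuclei, the highest class of Col11a1, numbered 132 in WT-CFC, 326 in WT-naive and 226 in KO-CFC.

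Astrocyte-like nuclei also had more Col4a5 in WT-CFC. Its level was 42.5 CPM (83 UMIs) against 14.0 (25 UMIs) in WT-naive, a log2 ratio of 1.58 (0.94 to 2.30), and 59.3 CPM in KO-CFC. Both main astrocyte-like clusters showed it: 43.4 against 14.6 CPM in the larger, Gpc5-led cluster and 54.8 against 17.5 in a cluster led by Adgrv1 and Gfap, from 12 and 7 UMIs. In the same clusters Col11a1 was at 13.5 against 33.7 and 50.3 against 97.4 CPM. In this class 13% of all genes tested were at least 1.5-fold apart. With at least 1000 UMIs per nucleus the Col11a1 ratio in astrocyte-like nuclei was -0.35, within the fold.

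The other 2 pairs were in principal neurons. Col25a1 in mossy-like nuclei was at 64.9 against 36.1 CPM (0.84, 0.63 to 1.07). Col19a1 in granule-like nuclei was at 9.22 against 14.5 CPM (-0.65, -1.11 to -0.19), and was within the fold with no barcode removed by doublet score (-0.50) and after separate clustering of the libraries (-0.58). The highest collagens, Col25a1 and Col19a1 of Adarb2-like nuclei, gave log2 ratios of 0.09 and 0.13. Among partners, 13 of 117 pairs of folding, modification and processing genes differed (11.1%; 10 higher, 3 lower), and 8 of 49 pairs of basement membrane partners (16.3%; 4 higher, 4 lower), against 6.34% of all pairs. The first list included P4ha1, a subunit of the prolyl hydroxylase that stabilises the helix, at 98.0 against 58.1 CPM in Sst-like nuclei. Loxl1, a cross-linking oxidase, was at 2.10 against 21.5 CPM in mossy-like nuclei, a log2 ratio of -3.31. Lama2, a laminin chain, was at 744 against 478 CPM in astrocyte-like nuclei. Of 61 pairs of TGF-beta and profibrotic signals 2 were lower and none higher (3.28%), a share below that of all pairs. Collagen receptors had 4 of 40 pairs past the fold (10%), and breakdown genes and inhibitors 4 of 49 (8.16%). For small proteoglycans and glycoproteins it was 1 of 9 (11.1%).

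The library labelled KO-CFC was compared with both wild-type nuclear libraries, which therefore share it. Against WT-CFC, 10 of 42 collagen pairs differed (23.8%), 7 higher and 3 lower, and 23.8% of all 55322 pairs did so (14.6% higher, 9.16% lower). Against WT-naive, 15 of 43 differed (34.9%), 10 higher and 5 lower, against 22.8% of all 52510 (15.9% higher, 6.92% lower). The first share equals its background, so the number of collagens past the fold is no result about collagens there. Difference in genotype, in Xist and in library cannot be told apart.

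**Figure D5:**
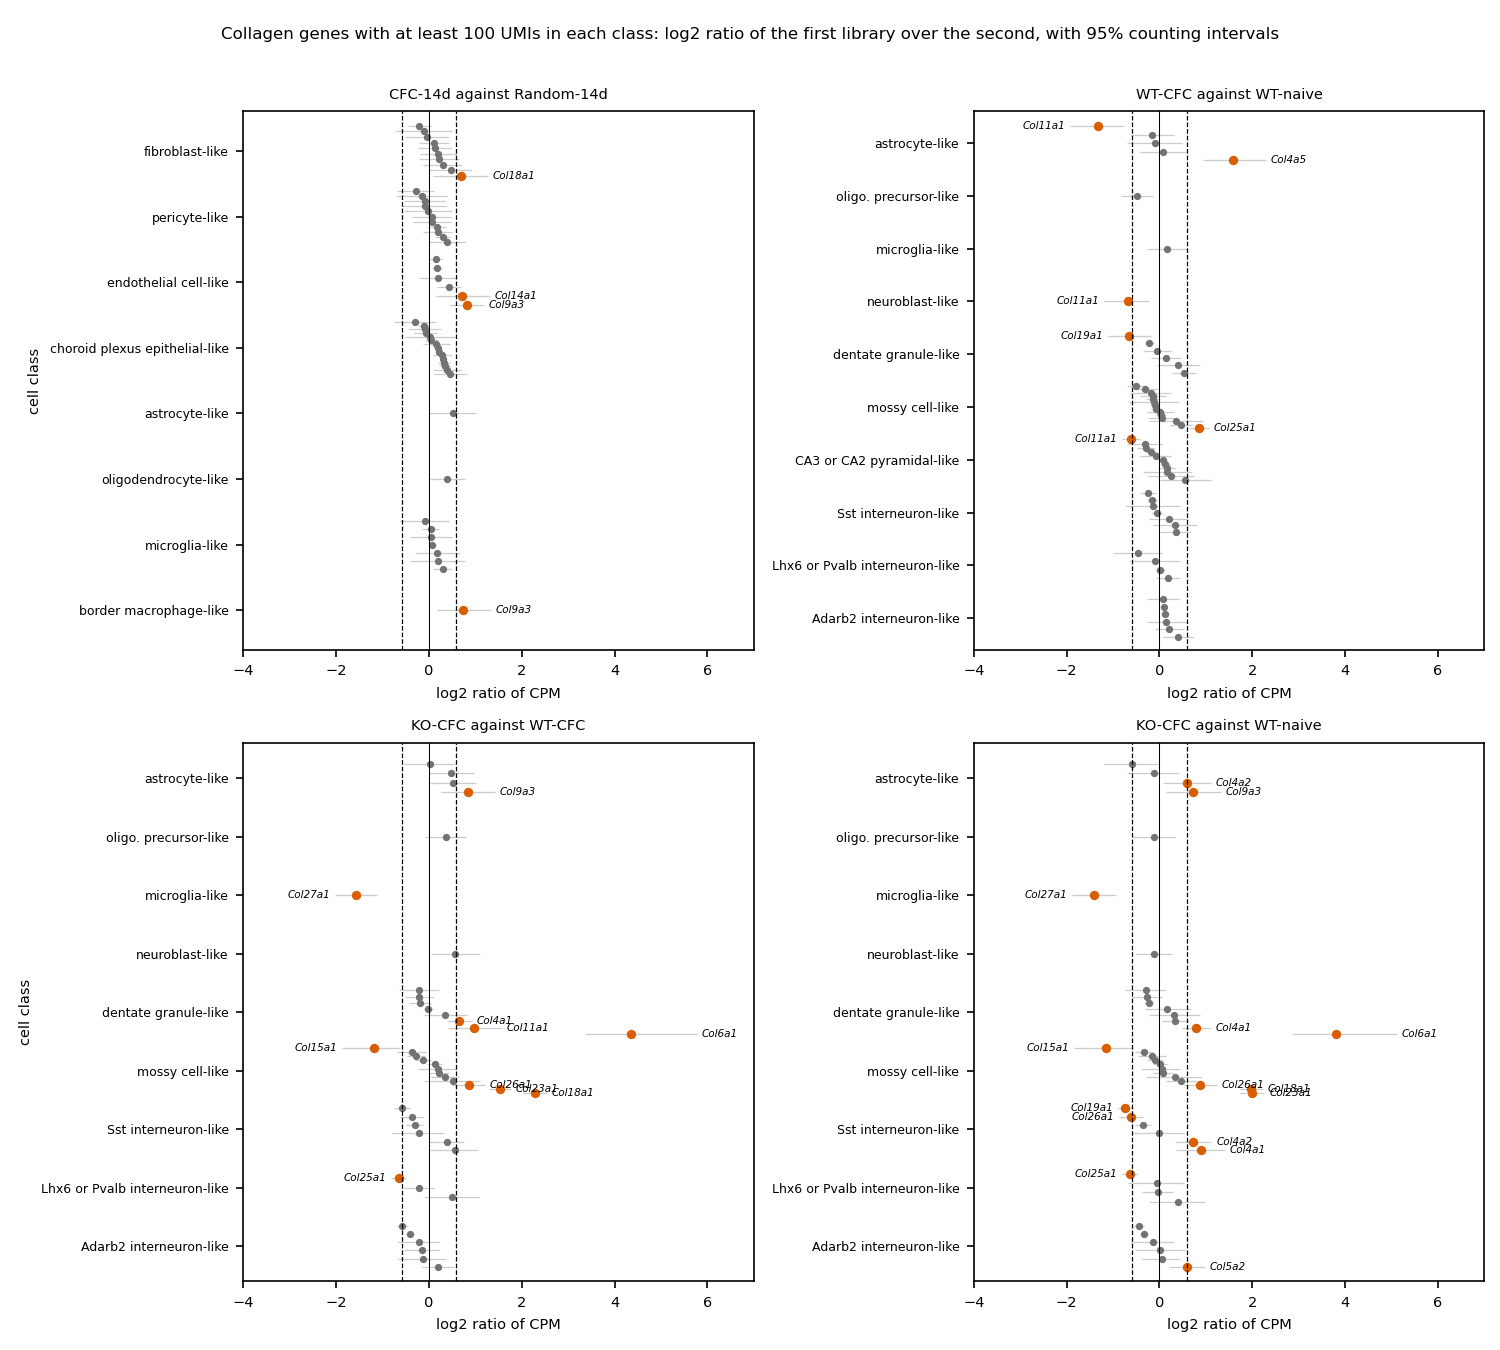
Log2 ratio of CPM (x axis) of each collagen gene with at least 100 UMIs over both libraries, by cell class (y axis), in the 4 comparisons, with 95% counting intervals; orange points with names are at least 1.5-fold apart and dashed lines mark that fold. The dissociated libraries differ in 4 gene and class pairs, of Col9a3, Col14a1 and Col18a1, by less than 2-fold, whereas the comparisons of KO-CFC reach a log2 ratio of 4.35 for Col6a1 in granule-like nuclei.

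The largest ratio was that of Col6a1, the α1 chain of beaded filaments, in granule-like nuclei. It was at 18.7 CPM (132 UMIs) in KO-CFC, 0.861 (7 UMIs) in WT-CFC and 1.27 (8 UMIs) in WT-naive, a log2 ratio of 4.35 (3.36 to 5.78) against WT-CFC. Of the 132 UMIs, 123 came from a cluster of 1618 nuclei of KO-CFC with 10 nuclei of WT-CFC and 6 of WT-naive, led by Xist. In the cluster shared by the libraries Col6a1 had 1 UMI in 67 nuclei of KO-CFC and 6 in 1365 of WT-CFC. Its partner Col6a2 had 5 UMIs in granule-like nuclei of KO-CFC, so that Col6a1 made 96.4% (91.7 to 98.8) of both.

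Mossy-like nuclei held the next largest ratios. Col18a1 was at 138 CPM in KO-CFC, 28.3 in WT-CFC and 35.0 in WT-naive, and Col23a1 at 125, 43.2 and 31.1. Col26a1 was at 47.7, 26.3 and 26.0 CPM and Col15a1, the other multiplexin, at 11.4, 26.4 and 25.5. The nuclei of KO-CFC lay in 2 clusters, 155 in one of their own with Col18a1 at 187 CPM and 93 in the cluster of the wild-type nuclei. Within the latter alone the log2 ratios against WT-CFC were 1.14 for Col18a1 (0.68 to 1.57; 2.28 over the whole class), 0.87 for Col23a1 (1.53), 0.71 for Col26a1 (0.86) and -1.13 for Col15a1 (-1.19). The differences in Col18a1 and Col23a1 were smaller there and all 4 ratios stayed past 1.5-fold. The intervals of Col23a1 (0.46 to 1.24), Col26a1 (0.15 to 1.20) and Col15a1 (-2.28 to -0.29) reached inside that fold. Col15a1 rested on 10 UMIs of KO-CFC in that cluster. Col11a1 was also higher in KO-CFC within that cluster (1.13), but not past the fold over the whole class (0.34). Col6a3, from 15 UMIs of KO-CFC, was lower within it (-0.59, -1.49 to 0.13) and not over the whole class (0.20). The median log2 ratio in mossy-like nuclei was 0.21 over 12 collagens and 0.15 over all genes.

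Col27a1 in microglia-like nuclei was lower in KO-CFC, at 75.4 CPM (71 UMIs) against 224 in WT-CFC and 201 in WT-naive, a log2 ratio of -1.57 (-2.02 to -1.12) against WT-CFC. With no barcode removed by doublet score the ratio against WT-naive was -0.39 in place of -1.41. Of the 750 microglia-like nuclei of KO-CFC, 680 formed a cluster of their own, led by Ly86, Fyb1 and Cd74. In the shared cluster Col27a1 had 5 UMIs in 48 nuclei, at 109 CPM against 230 in WT-CFC (-0.95, -2.73 to 0.19). In this class 35.7% of all genes tested differed by 1.5-fold. Thinned to 1000 UMIs, 7.81% of microglia-like nuclei of KO-CFC had a Col27a1 UMI, against 17.7% in WT-CFC and 17.0% in WT-naive (8.93%, 25.6% and 20.8% unthinned), with 289, 71 and 86 nuclei left out.

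The leading interneuron collagens were lower in KO-CFC, mostly within 1.5-fold. Col25a1 in Lhx6 or Pvalb-like nuclei was past it, at 706 CPM against 1113 in WT-CFC (-0.66, -0.81 to -0.50), but within it under 4 other settings (-0.57 to -0.53). In Sst-like nuclei Col19a1 was at 264 CPM against 439 in WT-naive (-0.73) and Col26a1 at 112 against 170 (-0.60), while Col4a1 was at 37.7 against 20.4 (0.89) and Col4a2 at 63.1 against 38.0 (0.73). Granule-like nuclei had Col4a1 at 36.9 CPM in KO-CFC, 23.4 in WT-CFC and 21.3 in WT-naive, and Col11a1 at 9.93, 5.04 and 7.95. Within the shared granule-like cluster, where KO-CFC had 10 UMIs of each gene, the log2 ratios against WT-CFC were 0.63 for Col4a1 (-0.52 to 1.48), 2.91 for Col11a1 (1.68 to 3.90) and 1.86 for Col19a1 (0.68 to 2.75; 0.35 over the whole class). Astrocyte-like nuclei had Col9a3 at 47.6 CPM against 26.6 and 28.6, though within the larger shared cluster the ratio against WT-CFC was 0.15. Against WT-naive, Col4a2 in astrocyte-like nuclei (0.59) and Col5a2 in Adarb2-like nuclei (0.60) lay just past the fold, and under 7 and 5 other settings, respectively, did not reach it (-0.04 to 0.51, and 0.29 to 0.57). Within the larger astrocyte-like cluster the Col4a2 ratio was 1.254 (0.11 to 2.31), from 13 and 20 UMIs.

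Partner lists are given first for KO-CFC against WT-CFC, where the background was 23.8%. Of 89 pairs of folding, modification and processing genes 15 were higher and 8 lower (25.8%). Of 37 pairs of basement membrane partners 2 were higher and 8 lower (27.0%), and of 26 pairs of collagen receptors 4 and 3 (26.9%). Of 39 pairs of breakdown genes and inhibitors 8 were higher and 1 lower (23.1%). Of 46 pairs of TGF-beta and profibrotic signals 6 were higher and 4 lower (21.7%). Of the 6 measured pairs of small proteoglycans and glycoproteins 4 were lower and none higher (66.7%). Against WT-naive, with a background of 22.8%, basement membrane partners had 4 higher and 4 lower of 30 pairs (26.7%). Small proteoglycans and glycoproteins had 1 higher and 1 lower of 4 there. Breakdown genes and inhibitors had 12 higher and none lower of 36 (33.3%), and folding, modification and processing genes 21 higher and 5 lower of 80 (32.5%).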

How the data were processed

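The authors deposited unnormalized UMI counts for every feature and barcode. Per the file headers these came from Cell Ranger 8.0.1. Seurat 5.4.0 and the build GRCm39 (mm39) are given per the submitters' processing notes. Barcodes with at least 500 UMIs, 300 genes and at most 20% (cells) or 5% (nuclei) mitochondrial UMIs were kept, and about 8% of highest doublet score (simulated doublets, own implementation) were removed per library. Libraries of each set were clustered together on 2000 variable genes without collagens (30 components, Leiden resolution 1; leidenalg 0.10.2, Python 3.11.15). A cluster took the name of its best-scoring class if at least 3 markers were raised 2-fold over the median cluster of its set. It stayed unnamed if an unrelated class scored above 0.6 of the best. It also stayed unnamed if such a class had more markers among the 10 leading genes, or if barcodes or depth were too low. Counts were summed per class and library; log2 ratios had 0.5 counts added. The ratio script was tested on simulated counts. Genes were named by rule: per class up to 8 collagens of highest level or peak there; per comparison those past 1.5-fold; per partner list its extreme members. Columns of per-sample values left unmapped: 0. Members and gene lists were chosen with earlier results of these data known.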

Additional observations from a re-analysis of the deposited data

How the results depend on the processing

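The 35 collagen differences past 1.5-fold were recomputed under up to 12 other settings, which gave 395 values. Of these, 360 kept direction and side of the fold, 34 kept the direction only, and 1 reversed. The reversal was Col4a2 in astrocyte-like nuclei of KO-CFC against WT-naive, -0.0393 with no barcode removed by doublet score. A minimum of 30 UMIs leaves each ratio unchanged, so the 35 values of that setting counted as kept by construction. A further 11 combinations gave no value, some of them for the levels or chain shares of fibroblast-like cells rather than for these differences. There the class was absent or under its minimum, or the chain pair had too few UMIs. The number of collagens past the fold moved as follows. With 15% removed by doublet score, CFC-14d against Random-14d gave 1 and KO-CFC against WT-CFC 16; with none removed, the latter gave 20. With each library clustered on its own, KO-CFC against WT-naive gave 8, and partner genes in CFC-14d against Random-14d 42 in place of 24. With a minimum of 30 UMIs the 4 comparisons, in the order of the report, gave 14, 22, 32 and 37, since more pairs were tested. Thinned to 500 UMIs, the share of cells with a UMI was 13% for Col1a1 in fibroblast-like cells, 12.5% for Col4a1 in endothelial-like cells, 6.995% for Col27a1 in microglia-like cells (all CFC-14d) and 39.6% for Col25a1 in Adarb2-like nuclei (WT-naive); unthinned, the last 3 were 41.6%, 27.4% and 69.0%. Except where a setting changes the genes or UMIs used, the cause was not tested. Comparison within a single shared cluster was chosen after seeing the data. No paired analysis was possible because each group had 1 library.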
